A study of Homo sapiens with 15 samples.

Results

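The 10 genes described here, HSPA5, HSP90B1, CALR, PDIA4, PDIA6, HERPUD1, DNAJB9, SDF2L1, EDEM1 and ATF6, encode chaperones, folding enzymes, degradation factors and a stress sensor of the endoplasmic reticulum (ER). They were taken by gene name from tables of 19843 distinct names, and all 10 were found in both tables. RNA was sequenced from HCC1954, a line of human breast cancer cells with HER2 (ERBB2) in excess, in 15 libraries. The parental line (Pa) gave 3 of them, and 4 each came from its brain-tropic derivatives: synchronous metastatic cells (S-BM), latent cells, which the labels also call residual (Lat), and metachronous metastatic cells (M-BM). All cells were cultured overnight in R3F medium before RNA extraction, so no group was measured in the brain. The labels do not say how many animals, clones or separate cultures a group stands for, so p-values measure only the spread between these libraries, which may be technical.

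Proteins that enter the secretory pathway fold in the ER with the help of chaperones and of enzymes that form disulfide bonds, and those that fail are returned to the cytosol for degradation. When unfolded protein accumulates, the sensors ATF6, IRE1 (ERN1) and PERK (EIF2AK3) start the unfolded protein response, which raises chaperone and degradation genes through the cleaved form of ATF6 and the spliced form of XBP1, and also ATF4. Many ATF6 targets carry an ER stress response element, a CCAAT box at a fixed distance from CCACG, in their promoters. Secretory epithelial cells, from which breast cancers arise, depend on this system for their protein output.

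The 10 genes did not move as a block. In Lat and in M-BM, calreticulin (CALR), the disulfide isomerases PDIA4 and PDIA6 and the cochaperone SDF2L1 fell against S-BM. The central chaperone HSPA5 and the sensor ATF6 rose in both. EDEM1 fell in Lat, and HSP90B1 rose in M-BM. HERPUD1 and DNAJB9 passed the test in neither comparison. The falls of CALR, PDIA4 and PDIA6 kept their calls under all 23 alternative settings. Every rise lost its call when the S-BM libraries with low ERBB2 were left out. For 9 of the 10 genes, all but EDEM1, these libraries were the lowest in S-BM, as they were for 33.0% of all genes. Leaving them out raises the S-BM mean, so it necessarily shrinks rises and enlarges falls. It therefore does not weigh rises against falls on equal terms.

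Promoter windows from RefSeq (GRCh38.p14), 300 bases long, were found for all 10 genes. They were searched on both strands for the ER stress response element (ERSE: CCAAT, then 9 bases of any kind, then CCACG), ERSE-II (ATTGG, 1 base of any kind, CCACG) and TGACGTGG, the unfolded protein response element; the first 2 motifs each hold a CCAAT box on one strand. An ERSE was present in 4 genes, HSPA5, HSP90B1, CALR and PDIA6, and in 27 of all 35116 windows (0.0769%). An ERSE-II was present in HERPUD1 (ATTGGGCCACG, bases -117 to -107 from the annotated start) and SDF2L1 (ATTGGTCCACG, -188 to -178, on the opposite strand), and in 0.0541% of all windows. No window of the 10 genes held TGACGTGG, which 0.729% of all windows held. Among the related genes followed below, CANX, CRELD2, XBP1 and SERP1 also held an ERSE. The 250 bases before the start of the 4 ERSE-bearing genes of the set are shown 5′ to 3′ on the gene's strand. These genes share the element but differed in direction against S-BM. CALR and PDIA6 fell, while HSPA5 and, in M-BM only, HSP90B1 rose. No such rise kept its call when the S-BM libraries with low ERBB2 were left out. Against Pa, HSP90B1, CALR and PDIA6 were all lower in every group. Capitals mark the ERSE, written as its reverse complement where it lies on the opposite strand.
HSPA5 (chr9:125241344-125241593, minus strand): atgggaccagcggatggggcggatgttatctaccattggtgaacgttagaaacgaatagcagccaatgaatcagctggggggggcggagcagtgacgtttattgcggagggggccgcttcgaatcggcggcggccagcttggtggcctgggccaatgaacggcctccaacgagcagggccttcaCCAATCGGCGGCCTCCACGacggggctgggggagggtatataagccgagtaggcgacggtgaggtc
HSP90B1 (chr12:103930160-103930409, plus strand): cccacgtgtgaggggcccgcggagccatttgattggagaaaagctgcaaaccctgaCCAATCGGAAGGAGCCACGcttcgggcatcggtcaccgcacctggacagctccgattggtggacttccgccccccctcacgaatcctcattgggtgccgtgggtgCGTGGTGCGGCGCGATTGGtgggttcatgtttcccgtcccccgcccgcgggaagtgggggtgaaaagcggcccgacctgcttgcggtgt
CALR (chr19:12938359-12938608, plus strand): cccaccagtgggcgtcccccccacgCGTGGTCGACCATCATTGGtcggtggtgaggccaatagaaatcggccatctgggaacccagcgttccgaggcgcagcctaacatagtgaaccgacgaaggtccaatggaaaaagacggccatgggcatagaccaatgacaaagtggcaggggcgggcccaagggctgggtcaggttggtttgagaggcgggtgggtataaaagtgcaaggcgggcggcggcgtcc
PDIA6 (chr2:10812786-10813035, minus strand): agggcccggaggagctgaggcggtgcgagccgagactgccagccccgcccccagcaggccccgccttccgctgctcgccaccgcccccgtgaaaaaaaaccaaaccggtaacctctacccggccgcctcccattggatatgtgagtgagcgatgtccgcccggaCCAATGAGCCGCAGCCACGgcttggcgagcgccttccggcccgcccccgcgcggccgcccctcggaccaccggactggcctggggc
The HSPA5 match lay at bases -66 to -48 and that of PDIA6 at -86 to -68. HSP90B1 held 2, at -194 to -176 and, on the opposite strand, -89 to -71. In CALR it lay at -225 to -207 on the opposite strand. PDIA6 has another window in the RefSeq table, at a start further upstream, with no match; PDIA4 has 2 windows, neither with a match. No match says only that these letters are not in the window.

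The values are normalized counts, the authors' reads per gene scaled to similar totals, so a level can be compared between libraries for a gene. Between 13.25 and 21.84 M reads per library were recovered from them, and 3 reads correspond to a value of 0.136 to 0.225, far below the lowest value of any of the 10 genes (8.3). Pa stands in a separately normalized table. Its values are given after scaling by 1.0062, a median ratio taken over 8841 genes, and were not tested. The breast epithelial markers ERBB2, GRB7, EPCAM, KRT8, KRT18, KRT19, KRT7 and CDH1 were present in all 4 groups, with a summed level of 6059 to 13383. Among 14 matched brain cell markers only SLC1A3 and MBP reached 10 in any group, and the summed level was highest in Pa (427.6 to 547.2, against 283.6 to 409.3 in S-BM, 146.4 to 171.4 in Lat and 145.4 to 199.9 in M-BM). Blood and vessel markers summed to 26.8 to 51.1. ERBB2 split S-BM, with 4109 in S-BM 1 and 4642 in S-BM 2 but only 353.1 in S-BM 3 and 367.3 in S-BM 4, so results against S-BM are also given without the latter 2.

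**Figure D1:**
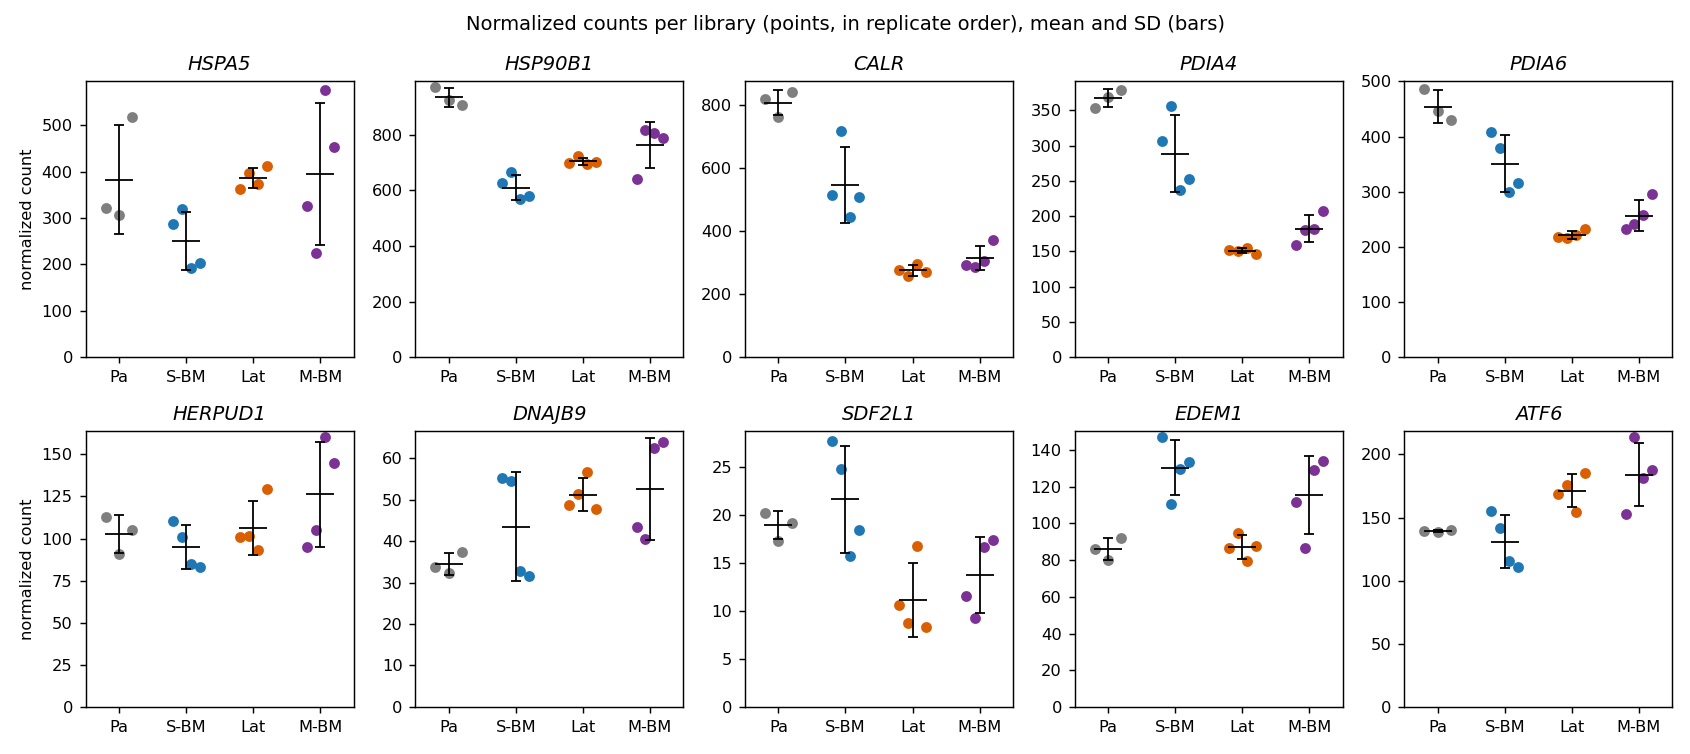
Normalized counts (y axis, starting at 0) of the 10 genes in each library of Pa (n = 3), S-BM, Lat and M-BM (n = 4 each); points are libraries, bars mean and SD. CALR, PDIA4 and PDIA6 step down from S-BM to Lat and M-BM without overlap, and HSPA5, HERPUD1 and DNAJB9 spread widely within M-BM.

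Differences between Lat, M-BM and S-BM were tested with limma on log2(value + 1) over 9646 genes, and a gene was called at a Benjamini-Hochberg adjusted p under 0.05. Calls were common, since 59.7% of all genes passed in Lat against S-BM (30.2% higher, 29.4% lower) and 52.7% in M-BM against S-BM (26.9% higher, 25.8% lower). Of the 10 genes, 2 rose and 5 fell in Lat, and 3 rose and 4 fell in M-BM. By libraries without overlap, 6 of the 10 stood apart between Lat and S-BM (2 higher, 4 lower; 54.5% of all genes, 26.9% higher and 27.6% lower). Between M-BM and S-BM there were 3, all lower (46.2% of all genes, 23.5% higher and 22.8% lower). Both comparisons use the same S-BM libraries. The median log2 fold change of the 10 genes was -0.21 in Lat and 0.05 in M-BM, against 0.01 over all genes in each. All 10 genes passed the filter, and each reached its minimum of 10 in libraries of all 3 groups; SDF2L1, the lowest of them, did so in 9 of 12 libraries.

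ATF6 (chromosome 1, 161766320 to 161964070, plus strand; positions are GRCh38.p14) encodes a membrane-bound factor that is cut in the Golgi when unfolded protein builds up and then activates chaperone genes. Its normalized count was 155.4, 141.6, 115.4 and 111 in S-BM 1 to 4, 168.6, 176.1, 154.7 and 185.5 in Lat 1 to 4, and 153.2, 213.6, 181.4 and 187.7 in M-BM 1 to 4. Lat 3 and M-BM 1 lay just below the highest S-BM library, and all other Lat and M-BM libraries lay above all of S-BM. ATF6 rose 1.32-fold in Lat (a log2 fold change of 0.40, SE 0.12, adjusted p = 0.0138) and 1.41-fold in M-BM (0.49, SE 0.12, 0.00467). Without S-BM 3 and S-BM 4 neither call held (0.20, adjusted p = 0.211, and 0.30, adjusted p = 0.0805), and the Lat call also ended when the closest library pairs were averaged (0.33, adjusted p = 0.0841). The 3 Pa libraries were close together, at 139.3, 138.9 and 140.5. Transcript level says nothing of how much ATF6 protein was cut.

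HSPA5 (chromosome 9, 125234853 to 125241343, minus strand) encodes BiP, the ER member of the Hsp70 family, which binds unfolded chains and holds the stress sensors inactive. Its counts were 287.2, 320, 191.3 and 203.3 in S-BM and 363.4, 396.7, 373.9 and 412.2 in Lat. All Lat libraries were above all S-BM libraries. In M-BM it stood at 325.7, 223.9, 575.6 and 452.6, with M-BM 2 inside the range of S-BM and M-BM 3 the highest of all 15 libraries. HSPA5 rose 1.58-fold in Lat (a log2 fold change of 0.66, SE 0.24, adjusted p = 0.0288) and 1.52-fold in M-BM (0.60, SE 0.24, 0.0476). Both calls were close to the threshold. The Lat call ended under 7 of 23 settings. It ended without S-BM 3 (adjusted p = 0.0851), S-BM 4 (0.0768), Lat 2 (0.0591) or Lat 4 (0.0625) and with no filter (0.0537). With the closest library pairs averaged the log2 fold change was 0.56 (0.119), and without S-BM 3 and S-BM 4 together it was 0.35 (0.298). The M-BM call ended under 14 of 23 settings, among them leaving out S-BM 3 (0.48, adjusted p = 0.129) or S-BM 4 (0.51, 0.116), M-BM 1 (0.66, 0.0525), M-BM 3 (0.39, 0.162), M-BM 4 (0.51, 0.119) or any Lat library (adjusted p from 0.055 to 0.0605), and the replicate block (0.60, adjusted p = 0.074); without S-BM 3 and S-BM 4 it was 0.29 (0.396). In Pa it ran from 305.9 in Pa 2 and 322.5 in Pa 1 to 517.5 in Pa 3, with an SD of 117.6 against 152.8 in M-BM.

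HSP90B1 (chromosome 12, 103930410 to 103947926, plus strand) encodes GRP94, the ER member of the Hsp90 family, which matures integrins, Toll-like receptors and other client proteins. It was at 624.6, 665.1, 567.8 and 579.7 in S-BM, at 696.7, 723.6, 693.7 and 699.8 in Lat and at 640.9, 816.5, 805 and 787.1 in M-BM. The Lat libraries stood above all S-BM libraries but by a small margin, and M-BM 1 fell inside the S-BM range. HSP90B1 rose 1.25-fold in M-BM (log2 fold change 0.32, SE 0.09, adjusted p = 0.0106), and without S-BM 3 and S-BM 4 this was 0.24 (0.108). In Lat the log2 fold change of 0.21 (95% interval 0.01 to 0.41, adjusted p = 0.0655) did not pass; it passed with DESeq2 (0.0465), without S-BM 2 (0.036) and without M-BM 1 (0.0332). Pa was higher than all 12 other libraries, at 972.2, 923.3 and 908. Its pseudogene HSP90B2P, a possible source of shared reads, did not exceed 1.05 in any library.

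CALR (chromosome 19, 12938609 to 12944489, plus strand) encodes calreticulin, a soluble chaperone that binds sugar-bearing glycoproteins, stores calcium and takes part in loading MHC class I molecules. It was at 514, 719.1, 443.8 and 509.7 in S-BM, at 276.6, 256.6, 296.9 and 271.6 in Lat, and at 293.1, 286.4, 306.8 and 371.2 in M-BM. No Lat or M-BM library reached the lowest S-BM library. CALR fell 1.95-fold in Lat (a log2 fold change of -0.96, SE 0.13, adjusted p = 3.53e-05) and 1.72-fold in M-BM (-0.78, SE 0.13, 0.000286), and both calls held under all 23 alternative settings. Pa was higher still, at 817.9, 762.9 and 840.2, so the mean in Lat was 0.341 times that in Pa. Its membrane-bound relative calnexin (CANX), which binds the same sugars, did not pass in Lat (1248 ± 11.8 in S-BM and 1210 ± 109.3 in Lat; log2 fold change -0.05, adjusted p = 0.627) or M-BM (1237 ± 51.9; -0.01, adjusted p = 0.898). The ratio of CALR to CANX counts was 0.356 to 0.574 in S-BM, 0.194 to 0.278 in Lat and 0.239 to 0.285 in M-BM.

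PDIA4 and PDIA6 encode ERp72 and P5, protein disulfide isomerases that form and exchange disulfide bonds in chains bound by BiP. PDIA4 (chromosome 7, 149003051 to 149028505, minus strand) was at 306.7, 356.6, 236.8 and 252.9 in S-BM, at 151.6, 150.5, 155.2 and 146.5 in Lat and at 159.8, 181, 181.3 and 207.7 in M-BM. The Lat libraries were nearly identical to each other, below all M-BM libraries, which in turn were below all S-BM libraries. It fell 1.88-fold in Lat (a log2 fold change of -0.91, SE 0.12, adjusted p = 2.6e-05) and 1.56-fold in M-BM (-0.64, SE 0.12, 0.000598). PDIA6 (chromosome 2, 10783391 to 10837712, minus strand) kept the same order, with 408.1, 379.3, 299.7 and 316.5 in S-BM, 218.1, 216.3, 221.5 and 231.7 in Lat and 232, 240.9, 257.3 and 296.7 in M-BM. M-BM 4 came within 3 units of the lowest S-BM library, and the groups did not overlap. PDIA6 fell 1.57-fold in Lat (-0.65, SE 0.11, adjusted p = 0.000182) and 1.36-fold in M-BM (-0.44, SE 0.11, 0.0038). All of these calls held under the 23 alternatives. The best known isomerases, P4HB (356.1 ± 26.7 in S-BM, 390.9 ± 56.8 in Lat, 399.8 ± 34.2 in M-BM) and PDIA3 (233.8 ± 27.7, 213.1 ± 7.79 and 217 ± 24.2), passed in neither comparison (adjusted p from 0.209 to 0.404).

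The cochaperones DNAJB9 and SDF2L1 work with BiP. DNAJB9 (chromosome 7, 108569874 to 108574850, plus strand) encodes ERdj4, a J-domain protein that directs BiP to IRE1 and to proteins bound for degradation. It was at 55.3, 54.4, 32.7 and 31.5 in S-BM, at 48.8, 51.3, 56.6 and 47.8 in Lat and at 43.3, 40.6, 62.4 and 64 in M-BM. S-BM and M-BM each fell into a high and a low pair, and all groups overlapped. The log2 fold change was 0.28 in Lat (95% interval -0.15 to 0.70, adjusted p = 0.244) and 0.29 in M-BM (-0.14 to 0.71, adjusted p = 0.236). Without S-BM 3 and S-BM 4 the signs turned (-0.10 and -0.09). SDF2L1 (chromosome 22, 21642302 to 21644299, plus strand), whose product keeps unfolded chains soluble together with BiP and a J protein, was the least counted of the 10. Its counts were 27.7, 24.7, 15.7 and 18.4 in S-BM, 10.6, 8.75, 16.7 and 8.3 in Lat and 11.5, 9.26, 16.6 and 17.4 in M-BM. The high libraries Lat 3, M-BM 3 and M-BM 4 reached the range of S-BM. SDF2L1 fell 1.89-fold in Lat (a log2 fold change of -0.92, SE 0.24, adjusted p = 0.00505) under all 23 alternatives, and 1.55-fold in M-BM (-0.63, SE 0.24, 0.0417), where 8 of 23 settings ended the call. These were the fits without S-BM 1 (adjusted p = 0.12), S-BM 2 (0.0958), Lat 1 (0.0532), M-BM 1 (0.0965) or M-BM 2 (0.126), no filter (0.0743), quantile normalization (0.063) and the replicate block (0.0573).

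HERPUD1 and EDEM1 serve ER-associated degradation. HERPUD1 (chromosome 16, 56932142 to 56944864, plus strand) encodes a membrane protein that helps assemble the HRD1 ubiquitin ligase complex. It was at 110.2, 101.2, 84.9 and 83.2 in S-BM, at 101.1, 101.3, 93 and 129.3 in Lat and at 95.2, 105.2, 160.1 and 144.7 in M-BM. M-BM 3, M-BM 4 and Lat 4 lay above all S-BM libraries, and the rest lay among them. It passed in neither Lat (log2 fold change 0.16, 95% interval -0.19 to 0.51, adjusted p = 0.417) nor M-BM (0.39, 0.04 to 0.74, adjusted p = 0.0603), where it passed with DESeq2 (0.0396) and without S-BM 1 (0.0435), M-BM 1 (0.0176) or M-BM 2 (0.0419). EDEM1 (chromosome 3, 5187707 to 5219958, plus strand), which speeds the trimming of mannose from misfolded glycoproteins and so marks them for degradation, was at 147.1, 110.6, 129.9 and 133.6 in S-BM, at 86.4, 95, 79.3 and 87.7 in Lat and at 111.5, 86.8, 128.9 and 134 in M-BM. Every Lat library was below every S-BM library, while M-BM ranged over both. EDEM1 fell 1.49-fold in Lat (-0.57, SE 0.13, adjusted p = 0.00191) under all 23 alternatives and did not pass in M-BM (-0.19, 95% interval -0.47 to 0.09, adjusted p = 0.245).

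**Figure D2:**
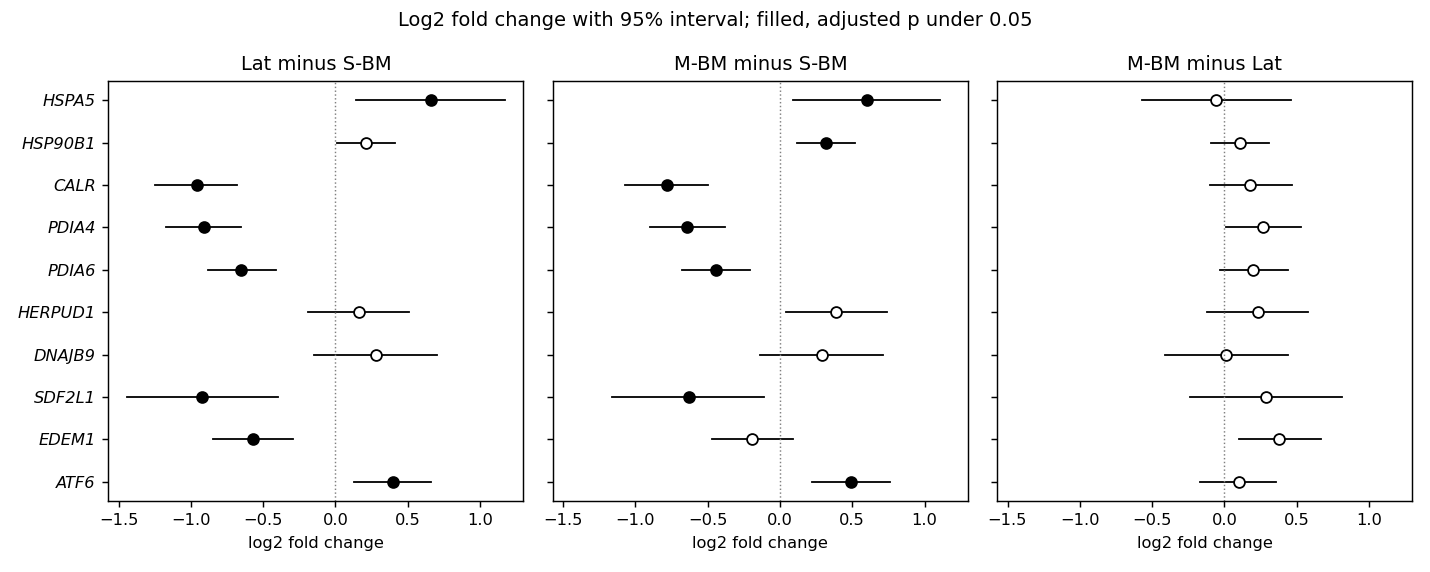
Log2 fold change (x axis) of the 10 genes in the 3 comparisons, with 95% intervals from limma; filled points passed an adjusted p of 0.05. Intervals of CALR, PDIA4, PDIA6 and SDF2L1 lie below 0 in both comparisons with S-BM, those of HSPA5 and ATF6 above 0, and no point of M-BM minus Lat is filled.

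M-BM was also compared with Lat. None of the 10 genes passed with limma, edgeR or DESeq2, where limma called 0.145% of all genes (0.0933% higher, 0.0518% lower). At an unadjusted p under 0.05 there were 2 with each tool, EDEM1 (log2 fold change 0.38, SE 0.13, adjusted p = 0.302) and PDIA4 (0.27, SE 0.12, adjusted p = 0.448); 10.9% of all genes had such a p with limma, 11.1% with edgeR and 12% with DESeq2. For 2 genes, PDIA4 and PDIA6, every M-BM library was above every Lat library; 7.3% of all genes showed no overlap (3.85% higher, 3.45% lower). PDIA6 was at 221.9 ± 6.91 in Lat and 256.7 ± 28.6 in M-BM (log2 fold change 0.20, 95% interval -0.03 to 0.44, adjusted p = 0.526). The 95% interval of HSPA5 ran from -0.57 to 0.46, so changes of that size in either direction lie within it. The difference between the Lat and M-BM changes against S-BM is this same contrast, so the separate calls of EDEM1 and HSP90B1 are not shown to differ between Lat and M-BM.

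Against Pa, the 3 brain-tropic groups shared a lower HSP90B1, CALR and PDIA6, each without overlap between libraries. Of the 10 genes, S-BM stood apart from Pa without overlap in 4, Lat in 7 and M-BM in 6, where 42.5% (22.2% higher, 20.3% lower), 71.3% (36.3% and 35.0%) and 66.5% (34.6% and 31.9%) of all genes did not overlap. The HSP90B1 mean was 0.652, 0.753 and 0.816 times that of Pa in S-BM, Lat and M-BM. The PDIA6 mean was 0.772, 0.488 and 0.565 times that of Pa. PDIA4 was below Pa in Lat (0.411 times) and M-BM (0.497 times); in S-BM, at 0.785 times, S-BM 2 (356.6) lay above the lowest Pa library (353.4). DNAJB9 and ATF6 were above Pa in Lat (1.48 and 1.23 times) and M-BM (1.52 and 1.32 times). The EDEM1 mean was 1.51 times that of Pa in S-BM, with no overlap, 1.01 times in Lat and 1.34 times in M-BM, where M-BM 2 (86.8) lay inside the Pa range. The HSPA5 means in Lat and M-BM were at the Pa mean (1.01 and 1.03 times). The S-BM mean was lower (0.656 times, with S-BM 2 inside the Pa range). Pa 3 (517.5) lay far above Pa 1 (322.5) and Pa 2 (305.9), so these ratios depend on Pa 3. Every Lat library lay above Pa 1 and Pa 2, and S-BM 1 (287.2) lay just below them. SDF2L1 was below Pa in every Lat library (0.587 times), and HERPUD1 overlapped Pa in all 3 groups.

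**Figure D3:**
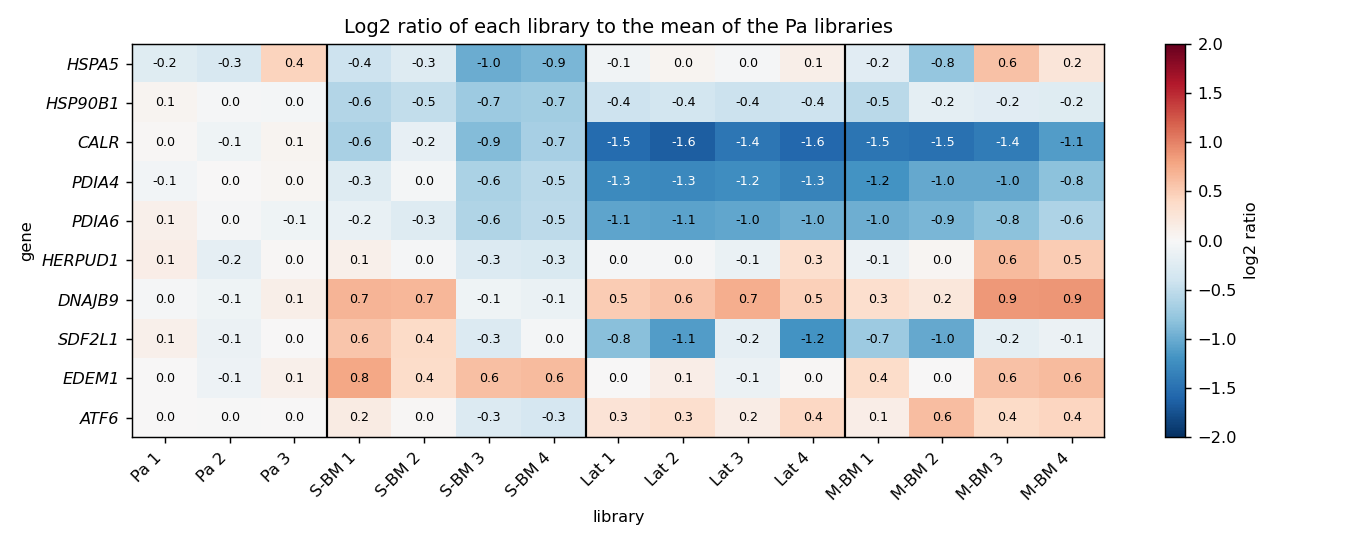
Log2 ratio of each library to the mean of the 3 Pa libraries (colour and printed value) for the 10 genes (rows) in all 15 libraries (columns, groups separated by lines). CALR, PDIA4 and PDIA6 are lowest in Lat, where CALR reaches -1.65, while DNAJB9 reaches 0.89 in M-BM 4.

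The ratio of 2 genes within a library does not depend on how libraries were scaled. It shows only their change relative to each other, not which gene moved or that they moved in opposite directions. The ratio of HSP90B1 to CALR counts was 1.08 to 1.21 in Pa and 0.925 to 1.28 in S-BM, but 2.34 to 2.82 in Lat and 2.12 to 2.85 in M-BM. The ratio of HSPA5 to PDIA4 was 0.804 to 0.936 in S-BM, 2.4 to 2.81 in Lat and 1.24 to 3.17 in M-BM, with 0.828 to 1.37 in Pa. For both ratios all Lat and M-BM libraries lay above all S-BM libraries. By contrast the ratio of PDIA4 to PDIA6 ran only from 0.632 to 0.94 over all 15 libraries. The pairs were chosen after the levels were seen, and the ratios are a description.

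**Figure D4:**
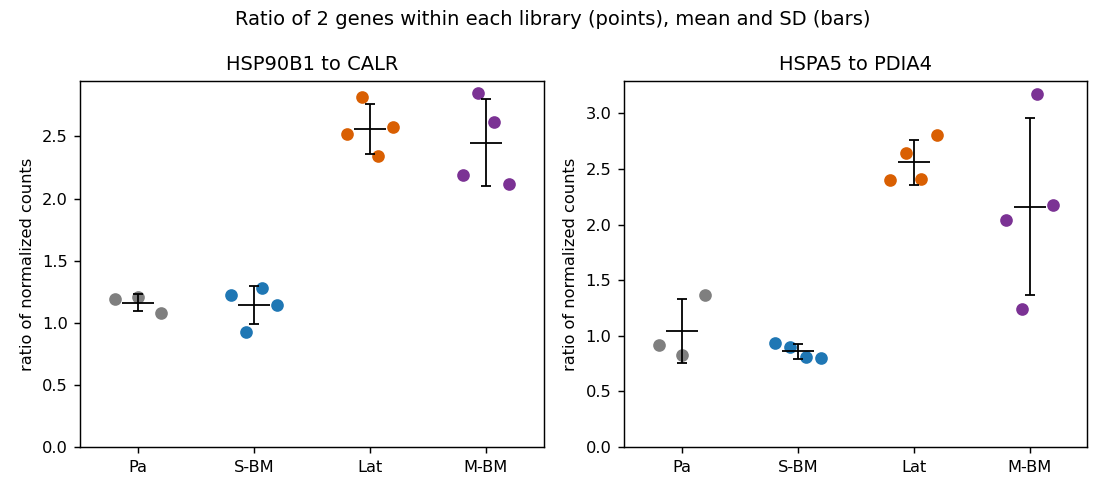
Ratio of normalized counts of HSP90B1 to CALR (left) and of HSPA5 to PDIA4 (right) in each library; points are libraries, bars mean and SD (n = 3 in Pa, 4 elsewhere), y axes start at 0. Lat and M-BM sit above S-BM in both panels, with M-BM 2 the lowest of them for HSPA5 to PDIA4 (1.24).

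Per kilobase of the longest principal GENCODE v29 transcript, CALR had the highest normalized count per kilobase of the 10 genes in Pa (424.1 ± 20.9) and S-BM (287.3 ± 62.7), followed by HSP90B1 (327 ± 11.7 and 213.2 ± 15.6). In Lat and M-BM this order turned, with HSP90B1 at 246.1 ± 4.78 and 266.7 ± 28.7 and CALR at 144.7 ± 8.75 and 165.2 ± 20.4. HSPA5 and PDIA6 followed in Lat (98.9 ± 5.63 and 94.9 ± 2.95) with overlapping libraries. PDIA4 came after them, at 52 ± 1.24, and then HERPUD1 at 36 ± 5.39. ATF6 (22.8 ± 1.74), DNAJB9 (18.8 ± 1.45), EDEM1 (14.2 ± 1.05) and SDF2L1 (12.8 ± 4.46) were the lowest 4 in Lat. Of these neighbours, ATF6 overlapped DNAJB9 and EDEM1 overlapped SDF2L1, while every DNAJB9 library was above every EDEM1 library. The transcript model behind the authors' counts is not given in the sources used here, so these levels per length are approximate.

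Within S-BM, 9 of the 10 genes were higher in S-BM 1 and S-BM 2 than in S-BM 3 and S-BM 4, the libraries with low ERBB2, and EDEM1 was not; 61.6% of all genes differed between these pairs without overlap, 33.0% being higher in S-BM 1 and S-BM 2. HSPA5, for example, was at 287.2 and 320 in the first pair and at 191.3 and 203.3 in the second.

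The genes whose pattern over the 12 S-BM, Lat and M-BM libraries was most like that of HSPA5 were FNTA, HNRNPH3, VEGFA, TAF15 and CIR1. The measure was the root mean square difference of log2(value + 1), each gene centred on its own mean, which was 0.197 to 0.225 for these 5 and 0.508 for the median gene. A gene that did not change at all would lie at 0.458, the spread of HSPA5 itself. FNTA, for example, ran from 98.1 to 110.5 in S-BM, and from 100.9 in M-BM 2 to 194.8 in M-BM 3. Among the other 9 genes of the set, DNAJB9 was the nearest to HSPA5 (0.247, rank 15 of all genes tested) and HERPUD1 came next (0.295, rank 132). ATF6 (0.37) and HSP90B1 (0.374) were further away, and CALR was the furthest (0.771). The 12 libraries fall into 3 groups and share their depth between genes, so the likeness is a description with no test.

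The wider pathway was followed in lists of related genes. Each list count is to be set beside the share over all genes. That share was 59.7% called in Lat (30.2% higher, 29.4% lower) and 52.7% in M-BM (26.9% higher, 25.8% lower). Among sensors and regulators of the unfolded protein response, 11 of 26 tested genes rose and 6 fell in Lat, and 11 rose and 5 fell in M-BM, with a median log2 fold change of 0.23 and 0.22 against 0.01 over all genes. DDIT3, which encodes the stress factor CHOP, went from 17.1 ± 4.38 in S-BM to 59.3 ± 11.8 in Lat (3.37-fold, adjusted p = 1.37e-06) and 51.6 ± 4.04 in M-BM (2.97-fold, 6.9e-06). PPP1R15A, the phosphatase subunit GADD34 that restores translation, rose 3.26-fold in Lat and 3.32-fold in M-BM, and TRAF2, an adaptor of IRE1, 2.71-fold and 2.28-fold. Of the sensors, ERN1 rose from 13.3 ± 3.26 to 30.8 ± 8.41 in Lat (adjusted p = 0.00062) and 28.4 ± 8.8 in M-BM (0.00185). EIF2AK3 fell from 53.7 ± 8.92 to 36.9 ± 2.19 (0.00458) and 39.9 ± 7.1 (0.0174); the M-BM call ended without S-BM 1, S-BM 2, M-BM 1 or M-BM 2 (adjusted p from 0.0508 to 0.0533). ATF4, the factor downstream of PERK, rose 1.85-fold and 1.76-fold. XBP1 fell 1.25-fold in Lat (593.2 ± 56.3 to 474.1 ± 50.8, adjusted p = 0.0153) and did not pass in M-BM (522.9 ± 44.8, 0.158); a count per gene does not separate its spliced from its unspliced form.

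Of the other ER chaperones and cochaperones, 5 of 26 rose and 5 fell in Lat and 5 rose and 6 fell in M-BM. That is 38.5% and 42.3% called, below the 59.7% and 52.7% of all genes. CRELD2, a secreted stress-induced factor, rose 2.46-fold in Lat and 2.23-fold in M-BM from 5.51 ± 0.216 in S-BM. All S-BM libraries lay below the minimum of the filter for CRELD2, so it was tested only because Lat and M-BM libraries reached that minimum. A gene as low in S-BM that did not rise would not have been tested, so CRELD2 could not have been counted as lower. SERPINH1, the collagen chaperone, rose 1.94-fold and 1.84-fold, and the calcium-binding CALU fell 1.78-fold and 1.72-fold. MANF, a BiP cofactor, fell from 45.1 ± 5.45 to 28.9 ± 2.46 in Lat (adjusted p = 0.000692) and 32.7 ± 5.19 in M-BM (0.0073). HYOU1, an exchange factor for BiP, rose 1.28-fold in Lat (0.0355) and 1.32-fold in M-BM (0.0228), and without S-BM 3 and S-BM 4 it was not called in Lat (log2 fold change 0.24, adjusted p = 0.237) or M-BM (0.29, 0.174). Leaving out any of S-BM 2, S-BM 3, S-BM 4, Lat 1, Lat 3 or Lat 4 also ended its Lat call (adjusted p from 0.0584 to 0.0907), as did the replicate block (0.0552), no filter (0.0533) and averaging the closest pairs (0.0986). The M-BM call also ended with the closest pairs averaged (0.0712), and without S-BM 3, S-BM 4 or M-BM 2 (0.0576 to 0.0692). DNAJB11, a J-domain partner of BiP, was at 100.6 ± 11.1, 95.4 ± 7.64 and 106.1 ± 12.9 in the S-BM, Lat and M-BM groups, passing in neither comparison (adjusted p = 0.576 and 0.588).

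Of the other disulfide isomerases and oxidases, 6 of 17 rose and 5 fell in Lat, and 7 rose and 6 fell in M-BM. PRDX4, an ER peroxidase, rose 2.33-fold and 2.25-fold, whereas the sulfhydryl oxidase QSOX1 fell 2.28-fold and 2.17-fold. AGR2, an isomerase of mucin-secreting cells, fell 5.03-fold in Lat (76 ± 8.55 to 14.8 ± 4.99) and 2.65-fold in M-BM (33.2 ± 18.6); without S-BM 3 and S-BM 4 the M-BM value was not called (log2 fold change -1.28, adjusted p = 0.0558). In ER-associated degradation 6 of 27 rose and 7 fell in Lat, and 6 rose and 4 fell in M-BM. These shares, 48.1% and 37.0% called, were also below those of all genes. DERL1, a channel component, rose 1.90-fold and 1.98-fold, and OS9, a lectin that reads trimmed sugars, fell 1.98-fold and 1.66-fold. RNF5, a membrane ligase with a near-identical pseudogene that leaves its level uncertain, fell 2.88-fold and 2.43-fold. SEL1L fell in Lat (171.6 ± 12.8 to 131.6 ± 9.64, adjusted p = 0.00545) and did not pass in M-BM (148 ± 18, 0.0867); its ligase partner SYVN1 passed in neither (46.2 ± 4.77, 44.5 ± 2.55 and 46.7 ± 5.19).

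ER import and signal processing had 6 of 33 genes higher and 8 lower in Lat and 6 higher and 6 lower in M-BM. These shares, 42.4% and 36.4% called, were below those of all genes. The translocation factor TRAM1 was 2.84-fold lower in Lat and 2.66-fold lower in M-BM. In ER to Golgi transport and retrieval, 18 of 32 genes fell and 4 rose in Lat, and 17 fell and 5 rose in M-BM; the median log2 fold change was -0.35 and -0.29. KDELR1, a receptor that returns escaped ER chaperones from the Golgi, fell from 207.5 ± 4.43 in S-BM to 123.2 ± 13 in Lat and 143.7 ± 16.4 in M-BM (adjusted p = 2.64e-05 and 0.000595). The COPII coat subunit SEC31A fell 2.04-fold and 1.77-fold, and SEC23B rose 1.85-fold and 1.34-fold. Cytosolic and mitochondrial chaperones had 10 of 25 higher and 4 lower in Lat and 13 higher and 2 lower in M-BM. The mitochondrial chaperonin HSPD1 rose 1.89-fold and 1.95-fold, and the small heat shock protein HSPB1 fell 4.23-fold and 3.13-fold. The cytosolic counterparts of HSPA5 and HSP90B1 passed in neither comparison: HSPA8 was at 1391 ± 56.4, 1355 ± 216.1 and 1561 ± 210.6 and HSP90AA1 at 777.5 ± 148.7, 724.2 ± 85.5 and 870.8 ± 141.4 in S-BM, Lat and M-BM. Without S-BM 3 and S-BM 4, the cytosolic and mitochondrial list had 7 genes higher and 4 lower in Lat. With the closest pairs averaged it had 6 higher and 4 lower. In the same 2 fits the transport and retrieval list had 18 and 17 genes lower in Lat. In M-BM against Lat, 0 of the 186 genes on these lists passed with limma or edgeR and 2 with DESeq2, and 20 had an unadjusted p under 0.05 with limma, as 10.9% of all genes did.

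**Figure D5:**
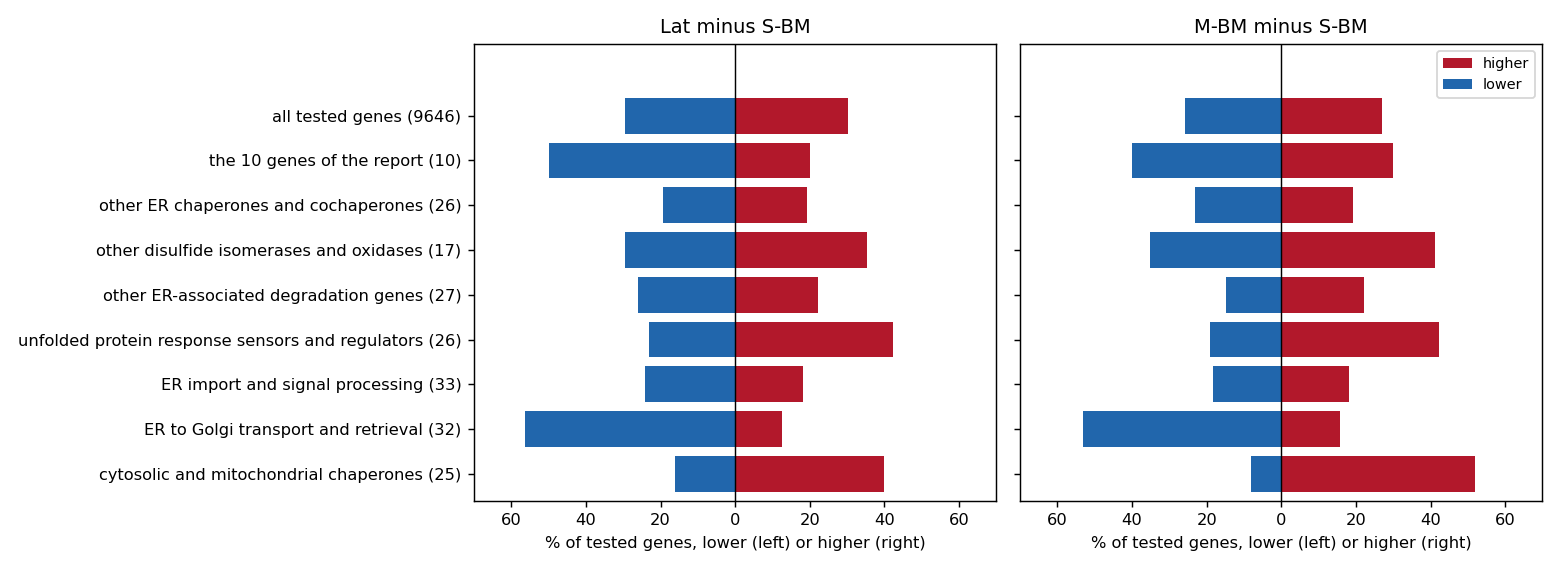
Percent of tested genes called lower (left, blue) and higher (right, red) in Lat against S-BM and M-BM against S-BM, for all 9646 tested genes, the 10 genes described here and the lists of related genes (number tested in parentheses). In this fit of all 12 libraries, transport and retrieval genes lean to the lower side and cytosolic and mitochondrial chaperones to the higher side.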

How the data were processed

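RNA-seq was available for 15 libraries. The submitters' processing notes name Bowtie 0.12.2 and the build GRCh38; libraries were made with a TruSeq RNA v2 kit, per the labels, which does not mark strand. How reads were counted, annotated and scaled: not given in the sources used here. Values deposited by the authors carry the name normalized count, treated as a signal; in every library 100.0% of values were whole multiples of 1 step (within 0.05 reads), which gave back the reads. Pa was deposited in a table of its own, so it was described and not tested.

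The 12 S-BM, Lat and M-BM libraries were fitted together with limma 3.58.1 (R 4.3.3) on log2(value + 1) with a variance trend and 9 residual degrees of freedom, two-sided. Genes with a value of at least 10 in at least 4 libraries were tested (9646) and Benjamini-Hochberg adjusted. The method was tested on simulated data. On the recovered reads edgeR called 5748 genes in Lat against S-BM, 5072 in M-BM against S-BM and 12 in M-BM against Lat (limma 5754, 5084 and 14). Alternatives were a pseudocount of 0.1, a filter at 1 or none, quantile and TMM scaling, edgeR 4.0.16 and DESeq2 1.42.0 on the recovered reads, a replicate block, fits of 2 groups, leaving out each library, leaving out S-BM 3 and S-BM 4, and averaging the most similar libraries, S-BM 3 with 4 and Lat 1 with 2. The mean squared difference within these pairs was 4.07 and 4.86 times that of sampling noise. It was 42.84 to 87.73 times for the other S-BM pairs, 11.23 to 55.18 for the other Lat pairs and 21.19 to 52.35 for M-BM pairs. Whether the 2 close pairs stand for separate cultures is not given in the labels. The labels do not say whether equal replicate numbers in different groups mark paired libraries. Residuals correlated at -0.272 to 0.319 for equal numbers (4 of 12 pairs above 0.1) and -0.305 to 0.322 for others. These ranges overlap and cannot exclude a pairing.

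The 10 genes, the lists and the libraries left out together were chosen with earlier results of these data known. Named genes were all 10, a fixed set of 15 pathway genes and, per list, up to 3 called genes with the largest change per comparison, some of them given only in the counts. Positions and promoters are from RefSeq tables. Planned protein sequences were not used here. From the 19845 names, 2 repeats were dropped.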

Additional observations from a re-analysis of the deposited data

Results flagged for a closer look

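Among 147 groups of 4 libraries, 9 held a library that stood apart from the other 3 by Dixon's test, where chance gives about 1 in 20. Of the 10 genes, only HSP90B1 had one: M-BM 1 was at 640.9, below the others at 787.1 to 816.5. In M-BM 3, CRELD2 was at 16 (others 12.6 to 12.9) and PRDX4 at 133.1 (113.8 to 116.1). In M-BM 4, RNF5 was at 28.6 (21.1 to 21.8). In M-BM 2, HSPA1A was at 165.5 (101.5 to 106.2) and HSPA8 at 1875 (1435 to 1486); HSPA1A has a near-identical copy, HSPA1B, and its level is uncertain. QSOX1 in S-BM 1 was at 149 (100.1 to 104.5), TRAF2 in S-BM 4 at 22.6 (19.9 to 20.1) and MANF in Lat 2 at 25.2 (29.6 to 30.5).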

How the results depend on the processing

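Over 108 gene results and 2484 recomputed values, 2393 kept direction and side of the threshold, 54 lost their call, 13 gained one and 24 turned sign, none of the last called. Of the 10 genes, the number higher in Lat than in S-BM was 2, but 1 with no filter and 0 without S-BM 3 and S-BM 4 or with the closest pairs averaged, where ATF6 in the last alone had an unadjusted p under 0.05. Leaving out 1 library gave 1 to 3 higher and 5 lower. In M-BM the number higher was 3, but 0 without S-BM 3 and S-BM 4 (1 unadjusted, ATF6), and 2 to 4 higher and 3 to 4 lower when 1 library was left out. Genes called in M-BM against Lat were 14, but 26 with a filter at 1, 24 with none, 141 with DESeq2, 5 with only 2 groups fitted, 3 with the closest pairs averaged and 3 to 30 when 1 library was left out. The cause was not tested. With the replicate block, 2 of the 10 genes were higher and 5 lower in Lat, and 2 and 3 in M-BM; it ended the M-BM calls of HSPA5 (0.60, adjusted p = 0.074) and SDF2L1 (-0.63, 0.0573) and the Lat call of HYOU1 (0.35, 0.0552), and HSPA1A gained a call in M-BM (-0.37, 0.0236).

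Without S-BM 3 and S-BM 4, log2 fold changes turned sign for HERPUD1 in Lat (-0.004), DNAJB9 in Lat (-0.10) and M-BM (-0.09), and DNAJB11 (-0.05) and SYVN1 (-0.08) in M-BM. SYVN1 in M-BM was -0.005 with DESeq2 and -0.02 with the closest pairs averaged. In M-BM against Lat, HSPA5 was 0.02 with edgeR and 0.01 with DESeq2, and DNAJB9 was -0.005 with quantile normalization. Leaving out 1 library gave ranges across 0 in Lat for CANX (-0.09 to 0.01), SYVN1 (-0.09 to 0.02), HSPA8 (-0.12 to 0.07) and HSP90AA1 (-0.16 to 0.03), in M-BM for CANX (-0.04 to 0.01) and SYVN1 (-0.05 to 0.08), and in M-BM against Lat for HSPA5 (-0.27 to 0.19) and DNAJB9 (-0.09 to 0.12). ATF6 in Pa was 138.7 as deposited. The lowest value of the 10 genes, 8.3, lay above the 0.136 to 0.225 that 3 reads stand for.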
